A study of Mus musculus with 8 samples.

Results

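The genes described here encode fibulins, fibrillins and other proteins of elastic fibres: Efemp1 (fibulin-3), Efemp2 (fibulin-4), Fbln1, Fbln2, Fbln5, elastin (Eln), Fbn1, Fbn2, Mfap4 and Mfap5. They were chosen by name as a family, with the very low level of Efemp1 in Stat5a/b-null cells already known. Their values came from the probe sets that the annotation of this Affymetrix mouse expression array assigns to 1 gene. Of the 10 genes, 8 had such probe sets, 15 in all, out of 18193 genes and 34945 probe sets of this kind. Efemp2 and Fbn1 have no such probe set in the annotation used and were not analysed here.

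The cells were embryonic fibroblasts of C57BL/6 mice, a culture grown out of embryonic tissue, at passage 13. The 4 groups, with 2 arrays each, were null cells lacking Stat5a and Stat5b with growth hormone (GH, 1 ug/ml), null cells without GH, control cells (labelled wild type) with GH, and control cells without GH. All cells had been starved for 5 hours before the 2 hours with or without GH. Replicates are numbered 2 and 3 and called biological in the labels. Whether different embryos or dishes gave them is not stated, so each p-value speaks only of the spread among these arrays, which may be technical. The labels do not say how Stat5a and Stat5b were removed.

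Elastic fibres have a core of crosslinked elastin laid down on microfibrils, which are built from fibrillins. Fibulins link elastin to the microfibrils and to basement membranes, and microfibril-associated proteins such as MFAP4 and MFAP5 bind to the fibrillin scaffold. Microfibrils also hold latent TGF-beta through its binding proteins. In skin, lung and vessels these proteins are made mainly by fibroblasts and smooth muscle cells.

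Values are on the log2 scale of the robust multi-array average (RMA), so a difference of 1 is a doubling. Replicate arrays correlated at 0.9974 to 0.9983 over all genes, and arrays of different groups at 0.9521 to 0.9946. Both Stat5a probe sets averaged between 4.48 and 5.71 in null groups, against 7.14 to 7.67 in control groups. Stat5b averaged 5.19 and 5.31 in null groups on the probe set 1422103_a_at, against 8.32 and 8.47 in control groups. On 1422102_a_at it averaged 6.99 and 7.32 in null groups, against 7.93 and 8.01 in control groups. Of 12 fibroblast markers none averaged under 6.097, the first quartile over all genes and arrays, in any group. The deposited values carry no detection call, and a level below that quartile was not set apart from background.

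The regulatory sequence upstream of the pair of fibulin genes, among the 8 measured here, with the largest differences in opposite directions is shown first, Efemp1 being low and Fbln1 high in null cells. Each is the 250 bases before an annotated transcription start, from RefSeq (GRCm38.p6), on the plus strand. The Efemp1 stretch lies at chr11:28852955-28853204 and the Fbln1 stretch at chr15:85205699-85205948. They are in lower case throughout because the letters searched for, TTCNNNGAA, the consensus bound by STAT5, were in neither.
Efemp1: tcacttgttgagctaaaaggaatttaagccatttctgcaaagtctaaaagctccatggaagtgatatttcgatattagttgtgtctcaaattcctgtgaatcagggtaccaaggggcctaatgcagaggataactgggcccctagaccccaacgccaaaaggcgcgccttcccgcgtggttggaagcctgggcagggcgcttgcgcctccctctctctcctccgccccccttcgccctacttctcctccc
Fbln1: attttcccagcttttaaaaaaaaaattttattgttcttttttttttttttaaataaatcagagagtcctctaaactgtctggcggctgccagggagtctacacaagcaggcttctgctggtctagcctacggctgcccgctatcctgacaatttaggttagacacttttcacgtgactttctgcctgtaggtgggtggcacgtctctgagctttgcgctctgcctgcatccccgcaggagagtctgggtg
The consensus reads the same on both strands. It was in 0 of the 10 windows listed for 6 of the genes (Efemp1, Efemp2, Fbln1, Fbln2, Fbln5 and Fbn1), some of which overlap, and in 7.02% of the 32851 windows of all genes. The G and C share was 53.6% for Efemp1 and 46.4% for this Fbln1 window, against a median of 52.4% over all windows. A second Fbln1 window that overlaps it, at chr15:85205758-85206007, had 62.4%. No match says only that these letters are not in these windows.

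The first comparison set null against control cells. Without GH, Efemp1 and Fbn2 were far lower in null cells, Mfap5 and Fbln2 were moderately lower, Fbln1 and Mfap4 were higher, and Eln and Fbln5 stood at nearly the same level in both genotypes. The same division held with GH. Because the genes were chosen with this contrast in view, their differences are given as a description with limma's standard error (SE, 2 arrays per group) and no p. Past the threshold used for all genes, a Benjamini-Hochberg adjusted p of limma below 0.05, were 2 higher and 4 lower of the 8 genes without GH, where 47.5% of all genes tested were past it (24.8% higher and 22.7% lower). With GH the counts were again 2 and 4, where 45.3% of all genes were past it (22.2% higher and 23.1% lower). The median difference of the 8 genes was -0.41 in both GH states, against 0.03 without GH and -0.02 with GH over all genes.

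**Figure D1:**
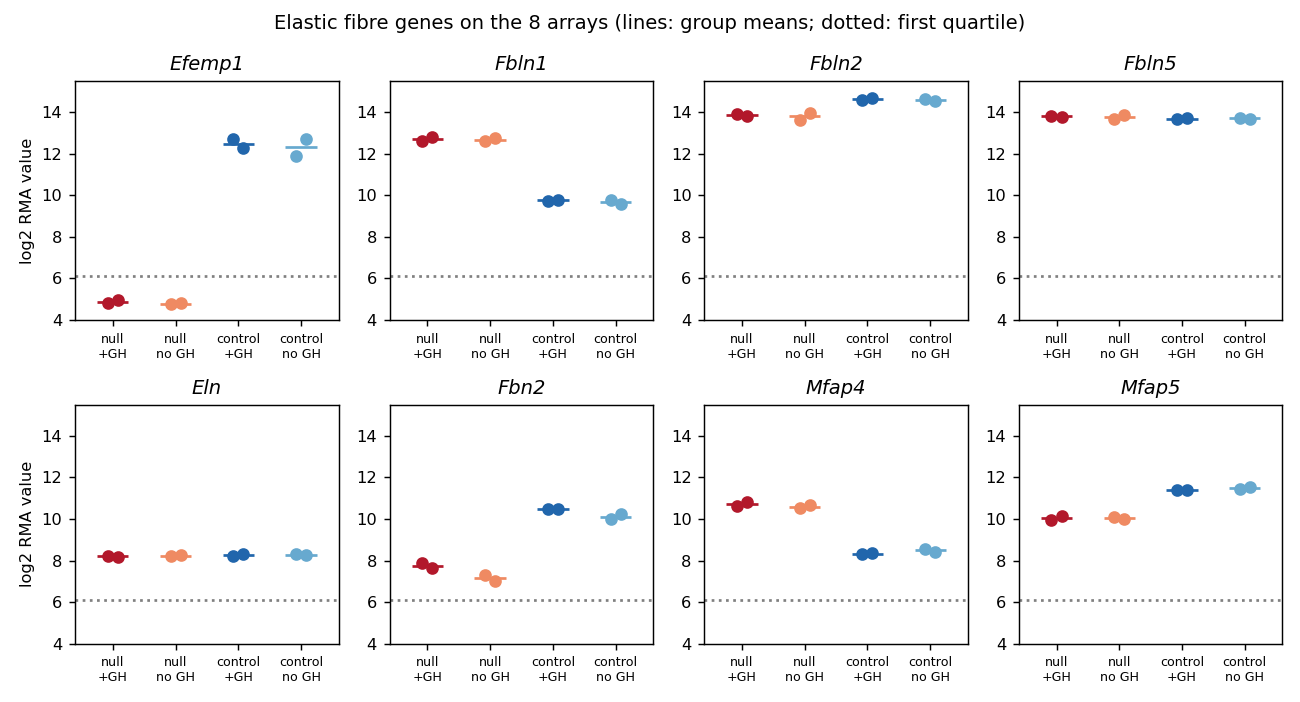
Log2 RMA value of each of the 8 measured genes (brightest probe set) on each of the 8 arrays, by group; points are arrays, lines are group means and the dotted line is the first quartile over all genes (6.097). Efemp1 lies below that line on all 4 null arrays, Fbln1 and Mfap4 are higher on every null than on every control array, and Eln and Fbln5 lie at similar levels in all groups.

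Efemp1 encodes a secreted fibulin that binds the protease inhibitor TIMP3. It read 4.83 and 4.96 on null arrays with GH and 4.75 and 4.83 on null arrays without GH, against 12.71 and 12.27 on control arrays with GH and 11.90 and 12.72 on control arrays without GH. The genotypes were far apart, while the control arrays spread more among themselves than those of any other of these genes, with an SD of 0.31 with GH and 0.58 without (n = 2 each). The measured difference, null minus control, was -7.60 ± 0.21 with GH and -7.52 ± 0.21 without. Since the null level lay below the first quartile, the fold is given as a bound with the null level set to that quartile: at least 84.2-fold lower with GH and at least 74.1-fold lower without. A single probe set measured Efemp1.

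Fbln1, a fibulin of basement membranes and elastic fibres, went the other way. It read 12.63 and 12.80 in null cells with GH and 12.62 and 12.74 in null cells without, against 9.75 and 9.80 in control cells with GH and 9.79 and 9.57 in control cells without. Every null array lay above every control array. The difference was 2.94 ± 0.10 with GH (7.69-fold) and 3.01 ± 0.10 without (8.03-fold). The probe set 1422540_at gave nearly as much (2.82 with GH and 2.90 without), whereas 1439688_at, with values near 7, gave 0.23 and 0.32.

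Fbln2, a fibulin that binds fibronectin and fibrillin, was very bright in all groups and lower in null cells. It read 13.91 and 13.84 in null cells with GH and 13.65 and 13.98 in null cells without, against 14.60 and 14.70 in control cells with GH and 14.64 and 14.53 in control cells without. The groups did not overlap, and the difference was -0.78 ± 0.11 with GH and -0.77 ± 0.11 without (1.71-fold lower in both). The dimmer probe set 1438375_at gave larger differences, -1.44 with GH and -1.83 without, its null mean without GH (6.04) lying just under the first quartile.

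Fbln5, which is needed for elastic fibre assembly in the mouse, was bright in all groups, and its differences between genotypes were small. It read 13.81 and 13.79 in null cells with GH and 13.65 and 13.86 in null cells without, against 13.67 and 13.70 in control cells with GH and 13.71 and 13.69 in control cells without. Without GH the null arrays spanned the control arrays, and with GH both null arrays lay above both control arrays. The difference was 0.11 ± 0.09 with GH (95% interval -0.09 to 0.31) and 0.06 ± 0.09 without (-0.15 to 0.26). Its second probe set, 1446377_at, gave 0.31 with GH, which was past the threshold used for all genes, and 0.09 without, which was not.

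Eln, the elastin gene, stood near the median of all gene values (8.04) in every group. It read 8.22 and 8.20 in null cells with GH and 8.22 and 8.25 in null cells without, against 8.23 and 8.30 in control cells with GH and 8.31 and 8.25 in control cells without. The difference was -0.05 ± 0.08 with GH (95% interval -0.24 to 0.13) and -0.04 ± 0.08 without (-0.23 to 0.14). The second probe set, 1420854_at, gave the opposite sign (0.15 with GH and 0.26 without).

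Fbn2 encodes fibrillin-2, the microfibril protein that is prominent in embryonic tissue. It read 7.87 and 7.65 in null cells with GH and 7.31 and 7.02 in null cells without, against 10.49 and 10.48 in control cells with GH and 10.01 and 10.23 in control cells without. No null array came near the control arrays. The difference was -2.73 ± 0.12 with GH (6.64-fold lower) and -2.95 ± 0.12 without (7.74-fold lower). The other probe set, 1422831_at, gave -3.0 with GH and -2.99 without.

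The microfibril-associated genes went in opposite directions. Mfap4, whose product binds elastin and fibrillin, read 10.61 and 10.81 in null cells with GH and 10.51 and 10.66 in null cells without, against 8.30 and 8.36 in control cells with GH and 8.56 and 8.42 in control cells without. It was thus 5.20-fold higher in null cells with GH (2.38 ± 0.10) and 4.26-fold higher without (2.09 ± 0.10). Mfap5, which binds fibrillin and carries an integrin-binding motif, read 9.94 and 10.17 in null cells with GH and 10.10 and 10.00 in null cells without, against 11.39 and 11.40 in control cells with GH and 11.46 and 11.55 in control cells without. It was 2.54-fold lower in null cells with GH (-1.34 ± 0.10) and 2.75-fold lower without (-1.46 ± 0.10). Its other probe set gave -1.54 with GH and -1.58 without.

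**Figure D2:**
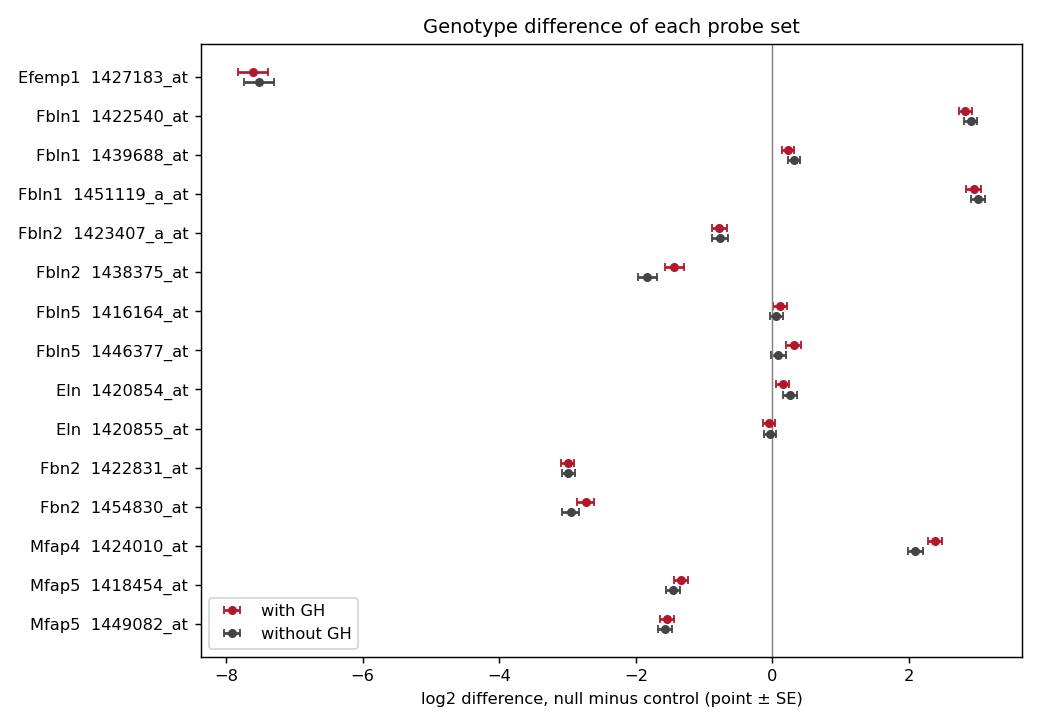
Log2 difference, null minus control, of each of the 15 probe sets with GH (upper point of each pair) and without GH (lower point); bars are limma's SE. Efemp1 has 1 probe set at -7.60 and -7.52, the Fbn2 probe sets lie between -2.73 and -3.0, and 1 of the 3 Fbln1 probe sets lies near 0 while the others lie near 3.

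Markers of other cells moved with the genotype too. Each of the 10 macrophage and leukocyte markers fell, with and without GH (median -3.05 with GH and -2.56 without). Their summed linear signal was 2457 to 2634 on null arrays with GH and 2177 to 2363 on null arrays without, against 26526 to 28513 on control arrays with GH and 25328 to 26836 on control arrays without. Ptprc (CD45), Itgam and Fcgr3 averaged below the first quartile in both null groups, joined with GH by Adgre1 and Tyrobp. No marker of this list did so in control cells. In the null groups Cd14, Csf1r, Cd68 and Lyz2 still averaged 8.54 to 9.79, above the median of all gene values (8.04). Laptm5 averaged 6.79 in null cells with GH and 6.86 without. Of the fibroblast markers, 4 were higher and 2 lower of 12 in either GH state, where 45.3% of all genes passed with GH and 47.5% without. Their median difference was 0.04 with GH and -0.01 without. Without GH, Lum (4.32), Pdgfra (3.80) and the decorin gene Dcn (3.57) led those that were higher, and Fap (-0.85) and Ddr2 (-0.75) were lower. In RNA of a whole culture, fewer cells of a type and less RNA per cell cannot be told apart. The part of either marker list in the differences of the elastic fibre genes was not tested.

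The genes most like Efemp1 over the 8 arrays, by the smallest root mean square difference of centred values, were C1qb, a complement subunit made by macrophages (0.39), Grb10, an adaptor of insulin receptor signalling (0.51), the cathepsin gene Ctss (0.65), the ribosomal protein paralog Rpl39l (0.70) and the collagen triple helix gene Cthrc1 (0.83). C1qb averaged 4.79 in null cells with GH and 4.93 in null cells without, against 11.77 in control cells in each GH state. Grb10 averaged 6.67 in null cells with GH and 7.19 in null cells without, against 13.78 in control cells with GH and 13.75 in control cells without. Efemp1 had the lowest null minus control difference of all genes (-7.60 with GH and -7.52 without). The ranking rests on that same contrast, so it returns other genes that were far lower in null cells. A shared cause was not tested.

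**Figure D3:**
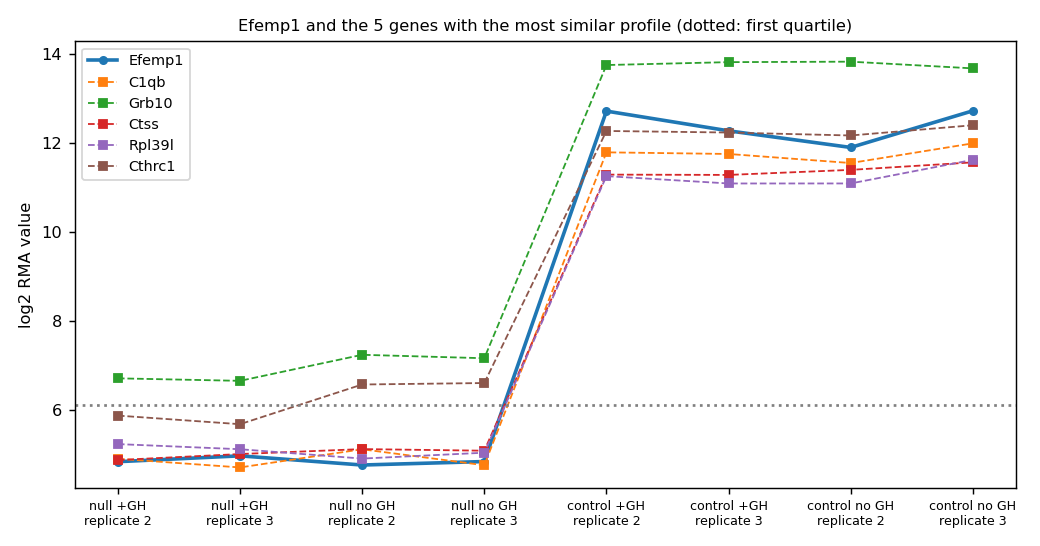
Log2 RMA value of Efemp1 (thick line) and of the 5 genes with the most similar profile on each of the 8 arrays, null arrays to the left; the dotted line is the first quartile (6.097). On the null arrays Efemp1, C1qb, Ctss and Rpl39l lie below that line, and Grb10 lies above it on all of them.

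Other genes of microfibrils, fibre assembly and crosslinking went both ways. This and the other related lists were chosen with earlier results of these data known. The p-values of their genotype differences are therefore not independent tests. Of 27 measured out of 29 listed, 9 were higher and 12 lower in null cells with GH (median -0.03, against -0.02 over all genes), where 45.3% of all genes passed. Without GH 9 were higher and 13 lower (median 0.06, against 0.03 over all genes), where 47.5% of all genes passed. Fbln7, a further fibulin gene, differed most: it read 10.56 and 10.75 in null cells with GH and 10.62 and 10.50 in null cells without, against 6.35 and 6.50 in control cells with GH and 6.36 and 6.34 in control cells without. The difference was 4.23 ± 0.10 with GH (limma adjusted p = 1.02e-11) and 4.21 ± 0.10 without (limma adjusted p = 1.17e-11), its control level lying close above the first quartile. Dcn, a small proteoglycan that binds TGF-beta, was 12.5-fold higher with GH (limma adjusted p = 8.34e-12) and 11.9-fold higher without (limma adjusted p = 1.13e-11). Across the alternative settings its log2 difference ranged from 2.88 to 3.69 with GH and from 2.13 to 3.58 without.

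The genes of latent TGF-beta binding proteins, which lie on microfibrils, went both ways. Of these, Ltbp2, Ltbp3 and Ltbp4 were singled out after their values were seen. Ltbp1 was 3.32-fold higher in null cells with GH (1.73 ± 0.13, limma adjusted p = 2.46e-07) and 3.24-fold higher without (1.69 ± 0.13, limma adjusted p = 2.90e-07). Across the alternative settings its difference ranged from 1.46 to 1.86 with GH and from 1.16 to 1.84 without. Ltbp4 was higher too (1.17 ± 0.10 with GH, limma adjusted p = 8.78e-07, and 1.02 ± 0.10 without, limma adjusted p = 2.91e-06). Ltbp2 was lower (-0.51 ± 0.12 with GH, limma adjusted p = 0.00331, and -0.82 ± 0.12 without, limma adjusted p = 8.50e-05). Ltbp3 did not pass (0.08 ± 0.09 with GH and 0.16 ± 0.09 without), but with the mean of its probe sets it was lower (-0.46 with GH and -0.26 without, limma adjusted p = 0.00195 and 0.0384). The integrin gene Itga8 was 3.67-fold lower without GH (-1.88 ± 0.11, limma adjusted p = 4.09e-08). It was lower with GH too (-1.72 ± 0.11, limma adjusted p = 9.18e-08). Loxl3, an enzyme of the lysyl oxidase family that crosslinks elastin and collagen, was 3.52-fold lower with GH (-1.82 ± 0.09, limma adjusted p = 5.78e-09). Without GH Loxl3 was lower too (-1.47 ± 0.09, limma adjusted p = 3.76e-08). Its mean was 10.45 in null cells and 12.27 in control cells with GH.

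Enzymes that degrade elastin and their inhibitors also divided. Of 15 measured, 5 were higher and 6 lower in null cells in either GH state, where 45.3% of all genes passed with GH and 47.5% without, and the median was -0.05 with GH and -0.09 without. The gelatinase gene Mmp2 was higher (1.79 ± 0.10 with GH and 1.78 ± 0.10 without), as were the elastase gene Cela1 (1.18 ± 0.09 and 1.59 ± 0.09), Mmp14 (0.82 ± 0.09 without GH, its mean being 13.79 in null cells and 12.97 in control cells) and the gelatinase gene Mmp9 (2.13 ± 0.11 with GH). In the other GH state Mmp14 (0.86 ± 0.09 with GH) and Mmp9 (0.79 ± 0.11 without) were higher too. The inhibitor gene Timp1 was lower (-0.99 ± 0.08 with GH and -1.39 ± 0.08 without). The macrophage elastase gene Mmp12 and Ctss were lower too, with levels below the first quartile in null cells, against 9.34 and 11.28 in control cells with GH and 9.15 and 11.48 in control cells without. Ctss is itself expressed mainly by macrophages and other leukocytes. The part of such cells in its difference was not tested.

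Of 13 measured TGF-beta ligands, receptors and response genes, 3 were higher and 7 lower in null cells with GH (median -0.38), where 45.3% of all genes passed, and 3 were higher and 8 lower without GH (median -0.44), where 47.5% did. The activin subunit gene Inhba was 4.31-fold lower with GH and 9.62-fold lower without. Ccn2, a matricellular response gene, was 2.51-fold lower with GH and 4.33-fold lower without, and the feedback inhibitor gene Smad7 was 2.34-fold lower without GH. The co-receptor gene Tgfbr3 was 4.07-fold higher with GH and 5.36-fold higher without, and the receptor gene Tgfbr2 was 2.32-fold higher with GH. In the other GH state Smad7 was lower (-0.90 ± 0.09 with GH) and Tgfbr2 was higher (1.13 ± 0.10 without). The largest limma adjusted p of the differences given for these genes was 4.48e-06. Across the alternative settings the Inhba difference ranged from -2.23 to -1.09 with GH and from -3.48 to -1.62 without.

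**Figure D4:**
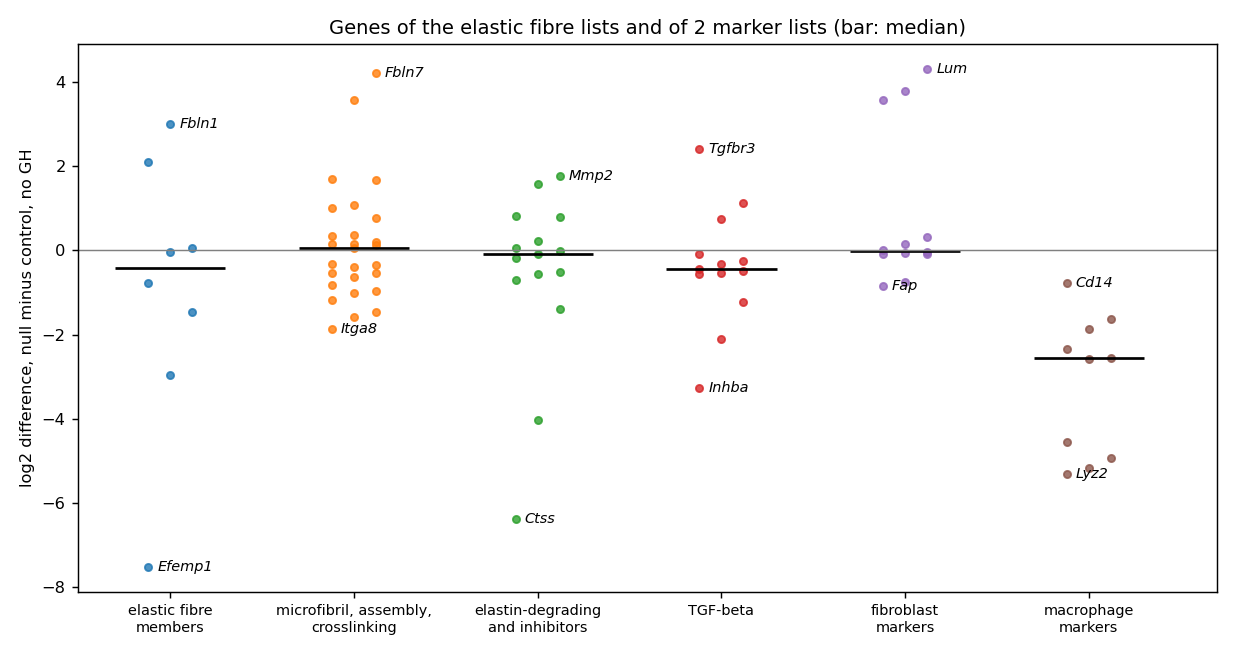
Log2 difference, null minus control without GH, of each gene of the 8 elastic fibre genes measured, 3 lists of related genes, and fibroblast and macrophage markers; each point is a gene, bars are medians, and the lowest and highest gene of each list is named. The 3 related lists have medians between -0.44 and 0.06, whereas all 10 macrophage markers lie below 0.

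The second comparison asked whether 2 hours of GH changed these genes. It did not enter the choice of the genes and was tested. In null cells 1 of the 8 genes passed, Fbn2, where 11.7% of all genes did (5.36% higher and 6.35% lower, or 975 and 1155 genes, against 1144 higher and 726 lower with each array centred on its median). In control cells 0 of the 8 passed by limma, where 2.62% of all genes did (1.72% higher and 0.896% lower). At an unadjusted p below 0.05 it was 1 of the 8 in control cells, against 1868 of all 18193 genes. Fbn2 rose 1.51-fold in null cells (0.59 ± 0.12, limma adjusted p = 0.00793), both null arrays with GH (7.87 and 7.65) lying above both without (7.31 and 7.02). The call was lost without replicate 2 of null cells with GH (0.48, adjusted p = 0.113) and without replicate 3 of null cells without GH (0.45, adjusted p = 0.0713). The other Fbn2 probe set gave 0.13 in null cells (adjusted p = 0.449).

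In control cells the Fbn2 difference with GH was 0.37 ± 0.12 (limma adjusted p = 0.202), the arrays with GH (10.49 and 10.48) again lying above those without (10.01 and 10.23). The difference between the GH effects in null and control cells was 0.22 ± 0.17 for Fbn2 (limma adjusted p = 0.575). For 0 of the 8 genes did the GH effect differ between genotypes by limma (0 at an unadjusted p below 0.05, against 3162 of all 18193 genes). Over all genes 5.16% passed (2.83% positive and 2.33% negative, or 515 and 423 genes, against 697 and 311 with each array centred on its median). Among the 8 genes the largest size was that of Mfap4 (0.29 ± 0.14, limma adjusted p = 0.34), which stood at 0.13 ± 0.10 in null cells and -0.16 ± 0.10 in control cells.

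No other GH effect on these genes passed. In null cells the other 7 genes lay between -0.03 and 0.13 (limma adjusted p from 0.465 to 0.982), and in control cells between -0.16 and 0.18 (limma adjusted p from 0.725 to 0.994). The 0.18 is that of Efemp1, and it turned with the control array left out: it was -0.23 without replicate 2 of control cells without GH and 0.60 without replicate 3 (limma adjusted p = 0.65 and 0.0796). The 95% interval of the GH effect was widest for Efemp1, -0.36 to 0.56 in null cells and -0.28 to 0.65 in control cells. Both null levels of Efemp1 lay below the first quartile. The model pools the variance of a gene over all groups, so the SE of Efemp1 was 0.21 in both genotypes. Its null arrays spread little (SD 0.09 with GH and 0.06 without) and its control arrays more (0.31 with GH and 0.58 without). The width in null cells thus reflects the spread of the control arrays as well. The interval was narrowest for Eln, -0.21 to 0.16 in null cells and -0.20 to 0.17 in control cells.

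**Figure D5:**
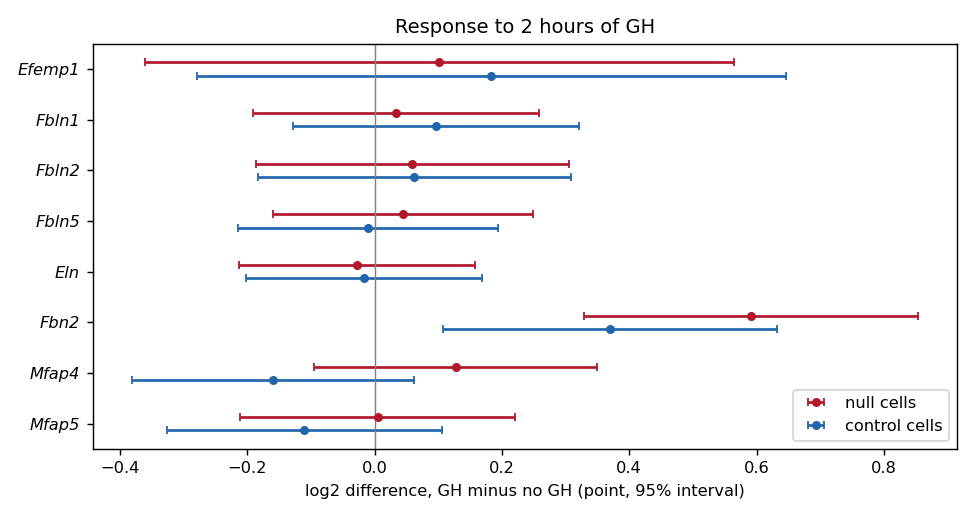
Log2 difference, GH minus no GH, of the 8 measured genes in null cells (upper point of each pair) and control cells (lower point), with 95% intervals from limma's SE. Fbn2 lies at 0.59 in null and 0.37 in control cells, and the intervals of the other 7 genes include 0 in both genotypes.

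GH effects on the related genes were counted against the same shares of all genes, 11.7% in null cells and 2.62% in control cells. Of the 27 microfibril and assembly genes, 2 rose and 1 fell in null cells, and 0 passed in control cells by limma. At an unadjusted p below 0.05 it was 4 of the 27 in control cells, against 1868 of all 18193 genes. In null cells the metalloprotease gene Adamts6 fell (-1.0 ± 0.10, limma adjusted p = 3.53e-05), and Ltbp2 (0.42 ± 0.12, limma adjusted p = 0.0399) and the proteoglycan gene Vcan (0.37 ± 0.10, limma adjusted p = 0.0358) rose. The calls of Ltbp2 and Vcan were lost under several settings, among them the replicate number as a block (adjusted p = 0.0561 and 0.0509).

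Of the 15 elastin-degrading enzymes and inhibitors, 3 rose and 1 fell with GH in null cells, where 11.7% of all genes passed. In control cells 0 passed by limma (0 at an unadjusted p below 0.05, against 1868 of all 18193 genes). Mmp9 rose 2.88-fold in null cells (1.53 ± 0.11, limma adjusted p = 2.74e-06), at 10.08 and 10.09 with GH, against 8.43 and 8.69 without. Timp1 rose (0.38 ± 0.08, limma adjusted p = 0.0127) and Cela1 fell (-0.43 ± 0.09, limma adjusted p = 0.00938). The remaining gene that rose, Mmp12 (0.71 ± 0.12, limma adjusted p = 0.00213), averaged 5.83 with GH and 5.12 without, both below the first quartile and not set apart from background. The Timp1 and Cela1 calls were lost when single arrays were left out, Timp1 without any 1 of the null arrays and Cela1 without 3 of the 4, with adjusted p up to 0.0785 and 0.0821.

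Of the 13 TGF-beta genes, 3 rose with GH in null cells, where 11.7% of all genes passed, namely Inhba (0.87 ± 0.14, limma adjusted p = 0.00172), Tgfb1 (0.52 ± 0.11, limma adjusted p = 0.00865) and the SMAD corepressor gene Skil (0.51 ± 0.10, limma adjusted p = 0.00532). The Tgfb1 call was lost with the mean of its probe sets (0.27, adjusted p = 0.0928) and without 3 of the 4 null arrays, and the Skil call without replicate 2 of null cells with GH (adjusted p = 0.0740). In control cells Ccn2 fell (-0.89 ± 0.09, limma adjusted p = 7.04e-05), at 13.40 and 13.45 with GH, against 14.25 and 14.37 without.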

How the data were processed

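RNA of 8 samples was measured on Affymetrix mouse expression arrays. The authors deposited log2 values; Partek 6.10.0511 and RMA appear in the submitters' processing notes, and no setting of either is given in the sources used here. Of 45101 probe sets, 64 controls were left out, and of the others 34945 were annotated to 1 gene, 932 to several and 9160 to none. Only the first kind was used, with symbols updated through Entrez identifiers for 34741 of them. The probe set with the highest mean over all arrays stood for a gene, which left 18193 genes. Titles gave each array its group and number; where 1 title (null without GH, number 2) and its source label (number 3) differ, the title was taken.

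A group-means model over all 8 arrays was fitted in limma 3.58.1 (R 4.3.3), with 4 residual degrees of freedom and moderated variances (7.82 prior degrees of freedom). Adjustment was by Benjamini-Hochberg over all genes within a comparison, with a threshold of 0.05. Arrays have no read depth; precision is limited by how many there are. The residual SD of a gene had a median of 0.097. The fit was tested on simulated data. The members and lists were chosen with earlier results of these data known, and the quartile bound after the values were seen. Besides the 8 members, named genes are Stat5a and Stat5b and the 5 genes most like Efemp1. Up to 4 genes of each related list are named too, those with the largest called difference whose groups both lie above the first quartile. Others were singled out beyond these rules after their values were seen. They are Mmp12, Ctss, Lum, Pdgfra, Fap, Ddr2, Cnn1, Smtn, Myocd, Tek, Vwf, Emcn, macrophage markers and, for the genotype comparisons, Ltbp2, Ltbp3 and Ltbp4. Alternatives covered the choice of probe set, array scaling, a filter on dim genes, variance moderation, the replicate number as a block, the arrays in the fit, each array left out and a required 1.5-fold change.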

Additional observations from a re-analysis of the deposited data

Results flagged for a closer look

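For 5 of the related genes the GH effect differed between null and control cells by limma's interaction test. These were 1 of the 27 microfibril and assembly genes, 1 of the 15 elastin-degrading enzymes and inhibitors and 3 of the 13 TGF-beta genes. Over all genes 5.16% passed this test. Each value is the effect in null cells minus that in control cells. Mmp9 differed by 1.34 ± 0.16 (limma adjusted p = 0.000347), at 1.53 in null cells and 0.19 in control cells. Inhba differed by 1.16 ± 0.20 (limma adjusted p = 0.00483), at 0.87 in null cells and -0.29 in control cells, and lost the call with the mean of its probe sets (0.53, adjusted p = 0.116). Ccn2 differed by 0.79 ± 0.13 (limma adjusted p = 0.00361), at -0.10 in null cells and -0.89 in control cells. Skil differed by 0.54 ± 0.14 (limma adjusted p = 0.0435), at 0.51 in null cells and -0.03 in control cells, and lost the call without any 1 of the 8 arrays (0.44 to 0.63, adjusted p from 0.0558 to 0.183). Adamts6 differed by -0.61 ± 0.14 (limma adjusted p = 0.0222), at -1.0 in null cells and -0.39 in control cells. With the mean of its probe sets the sign turned (0.13, adjusted p = 0.549), and the call was lost without 4 of the 8 arrays (adjusted p up to 0.102).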

How the results depend on the processing

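The number of the 8 elastic fibre genes past the threshold was counted under each alternative but the exchange of single probe sets, and was the same for both genotype comparisons, the interaction and GH in control cells. With 1 array left out, 0 or 1 of them passed for GH in null cells. Exchanging the brightest probe set for another changed a pair of calls: Fbn2 with GH in null cells was lost (0.13), and Fbln5, null against control with GH, passed (0.31). Over all genes, some counts changed by over 1.5 times under a required 1.5-fold change, single probe sets, only the arrays compared, or 1 array left out. Centring each array and the replicate block changed no total by that much. Requiring a 1.5-fold change gave 564 genes for GH in null cells, 269 for GH in control cells, 4369 for null against control with GH and 4521 without GH, against 2130, 476, 8247 and 8640. Testing every probe set alone, which tests more features, gave 3598 for GH in null cells, 1621 for the interaction (938 otherwise), 14728 for null against control with GH and 15377 without GH. Fitting only the arrays compared gave 316 for GH in control cells. Leaving out 1 array gave 818 to 2409 for GH in null cells, 295 to 460 for GH in control cells and 437 to 872 for the interaction. With each array centred on its median, 1144 genes rose and 726 fell with GH in null cells, against 975 and 1155, and 697 and 311 interactions were positive and negative, against 515 and 423. With the replicate number as a block the counts were 1713 for GH in null cells, 427 for GH in control cells, 754 for the interaction, 7957 for null against control with GH and 8315 without. The numbers share no stated source, and deviations of same-numbered arrays correlated between -0.28 and 0.13. The block ended the calls of Ltbp2 and Vcan in null cells and of the Skil interaction (adjusted p = 0.0634). With the mean of its probe sets the Adamts6 interaction turned to 0.13, and Ltbp3, null against control, to -0.46 with GH and -0.26 without. The cause was not tested. With 1 array left out, its partner is assumed to vary like the other groups.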

Other observations

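Over all genes 45.3% passed with GH and 47.5% without, null against control, the shares to set beside each count of markers below. Of 8 genes listed as smooth muscle markers, 6 were lower and 1 higher in null cells in either GH state, with a median of -0.64 with GH and -0.67 without. Their summed linear signal was 46114 to 46342 on null arrays with GH and 45506 to 46179 on null arrays without, against 82041 to 83049 on control arrays with GH and 81616 to 83657 on control arrays without. Without GH the calponin gene Cnn1 (-2.11) was lowest against control cells, and the smoothelin gene Smtn (0.57) was the one that was higher. Myocd, also on this list, did not pass in either GH state, its group means lying between 6.15 and 6.28. Whether the cultures held smooth muscle cells was not tested. Of 10 endothelial markers, 4 were lower and 1 higher with GH, where 23.1% of all genes were lower and 22.2% higher. Without GH 4 were lower and 0 higher by limma, where 22.7% of all genes were lower and 24.8% higher. Among those lower, Tek and Vwf averaged below the first quartile in every group, and Emcn did so in both null groups. Such levels were not set apart from background. Of 6 cartilage and bone markers, 1 was higher in either GH state, a smaller share than over all genes. Of 8 epithelial markers, 0 passed by limma with GH (0 at an unadjusted p below 0.05, against 9164 of all 18193 genes) and 1 was higher without.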
